A study of Caenorhabditis elegans with 4 samples.

Results

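The pals genes of *Caenorhabditis elegans* encode a large family of proteins that share the ALS2CR12 signature, a stretch named after a human gene and of no known biochemical activity. Several members are transcribed strongly when the intestine is infected by microsporidia or by the Orsay virus, as part of a set of genes called the intracellular pathogen response. Other members act as switches for that response: *pals-22* holds it off and its neighbour *pals-25* turns it on, and *pals-17* holds it off while *pals-16* and *pals-20* are needed to turn it on. The family was taken as every row of the deposited gene count table whose locus tag has a symbol starting with pals- in the RefSeq table of assembly WBcel235, which gave 39 genes of the 21895 in the table, 1 of them annotated as a pseudogene (*pals-36*). The symbols alone decide which genes are members, and no measured value enters that rule.

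The animals were whole worms of the wild-type Bristol N2 strain, with no transgene or mutation in any group. One group was shaken in M9 buffer for 24 h with 0.25 mg/mL of Cyclo(Pro-Tyr), in which proline and tyrosine form a cyclic dipeptide, and the other with its solvent DMSO. Each group has 2 libraries of total RNA, and the only comparison asks which transcripts differ with the compound. The worms are described only as embryos or L1 larvae at the start. The labels give 19 °C for the incubation in one place and 20 °C in another, and nothing says that the libraries of a group came from separate cultures, so p-values measure the spread between these libraries, which may be technical.

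Library totals ran from 40240674 to 52987317 counts, and 1 count was worth 0.0188 to 0.0256 CPM, the unit of level used here, in which a count is scaled to its library's size by the TMM method. Markers of intestine, epidermis, body muscle, neurons, germline and sperm were looked for, and none of the 35 was at 0 in all libraries. That is a weak criterion, which 1 count meets. The sperm genes *spe-38* and *gsp-3* had at most 10 and 8 counts in a library and were too low to be tested. The 7 intestinal markers summed to 2885 and 2815 CPM in DMSO replicates 1 and 2 and to 2751 and 2930 CPM in Cyclo(Pro-Tyr) replicates 1 and 2, so their ranges overlapped, and within the list *ges-1* and *act-5* had log2 fold changes of 0.67 and -0.53, neither called. The sums of the other 5 lists did not overlap between the groups, as was so for 60.5% of all single genes tested. Within each list genes went both ways. Log2 fold changes above and below 0 numbered 2 and 4 for epidermis, 3 and 2 for body muscle and 4 and 2 for neurons. For germline they numbered 1 and 5, and for the tested sperm genes 1 and 2. In the epidermal list *dpy-7* averaged 92.9 CPM in DMSO and 35.9 in Cyclo(Pro-Tyr), while *elt-3* averaged 42.1 and 46.5. The summed epidermal markers were 185 and 203 CPM in DMSO against 167 and 113 CPM in Cyclo(Pro-Tyr), germline 132 and 135 CPM against at most 120 CPM, and sperm 8.23 and 8.18 against 7.19 and 6.76. Body muscle was at 7445 and 8909 CPM against 9898 and 9687, and neurons at 825 and 838 against 938 and 977. Of all these markers edgeR called only the germline gene *oma-1*, which was lower (log2 fold change -0.99, adjusted p 0.0337). The 6 moulting genes followed as a sign of stage summed to 414 and 604 CPM in DMSO and to 351 and 142 CPM in Cyclo(Pro-Tyr), lowest in Cyclo(Pro-Tyr) replicate 2. All 6 had a log2 fold change below 0, with a median of -0.99, and edgeR called 0 of them. In 4 of the 6 both treated libraries lay below both DMSO libraries, as for 30.8% of all tested genes. The part of these tissue and stage markers in the values below was not tested. In RNA from whole worms, fewer cells of a type and less RNA per cell cannot be told apart.

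In both groups, transcripts of the family were present at modest levels. The 39 genes together took 323 and 311 CPM in the DMSO replicates and 306 and 346 CPM in the Cyclo(Pro-Tyr) replicates. The treated libraries were thus the lowest and the highest of the 4. Over all libraries, 10 genes averaged at least 10 CPM, 16 lay between 1 and 10 CPM, and 13 were below 1 CPM. The 5 most abundant genes of a library held 52.1% to 55.5% of the family's CPM.

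Levels of different genes were compared per kilobase of annotated exon. On this scale the family was led by *pals-24* (CELE_C29F9.4), with 40.1 and 38.99 CPM per kb in DMSO and 41.2 and 42.9 in Cyclo(Pro-Tyr). Next came *pals-23* (CELE_C29F9.3), with 37.4 and 36.4 in DMSO and 35.7 and 39.6 in Cyclo(Pro-Tyr). Per kilobase *pals-24* was above *pals-23* in all 4 libraries, although the ranges of the genes over the libraries overlapped. Below them were *pals-19* at a mean of 29.9 CPM per kb, *pals-31* at 20.8, *pals-22* at 19.1 and *pals-17* at 15.6, with *pals-31* and *pals-22* overlapping. At the other end, *pals-10* (CELE_C17H1.11) had no count in any library, which allows at most 0.0563 to 0.0768 CPM per library (3 counts, counting error only). The level of *pals-18* per kilobase is uncertain, because its annotated exon length of 2356 bases in Ensembl is longer than the 1472 bases that RefSeq gives the whole gene.

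**Figure D1:**
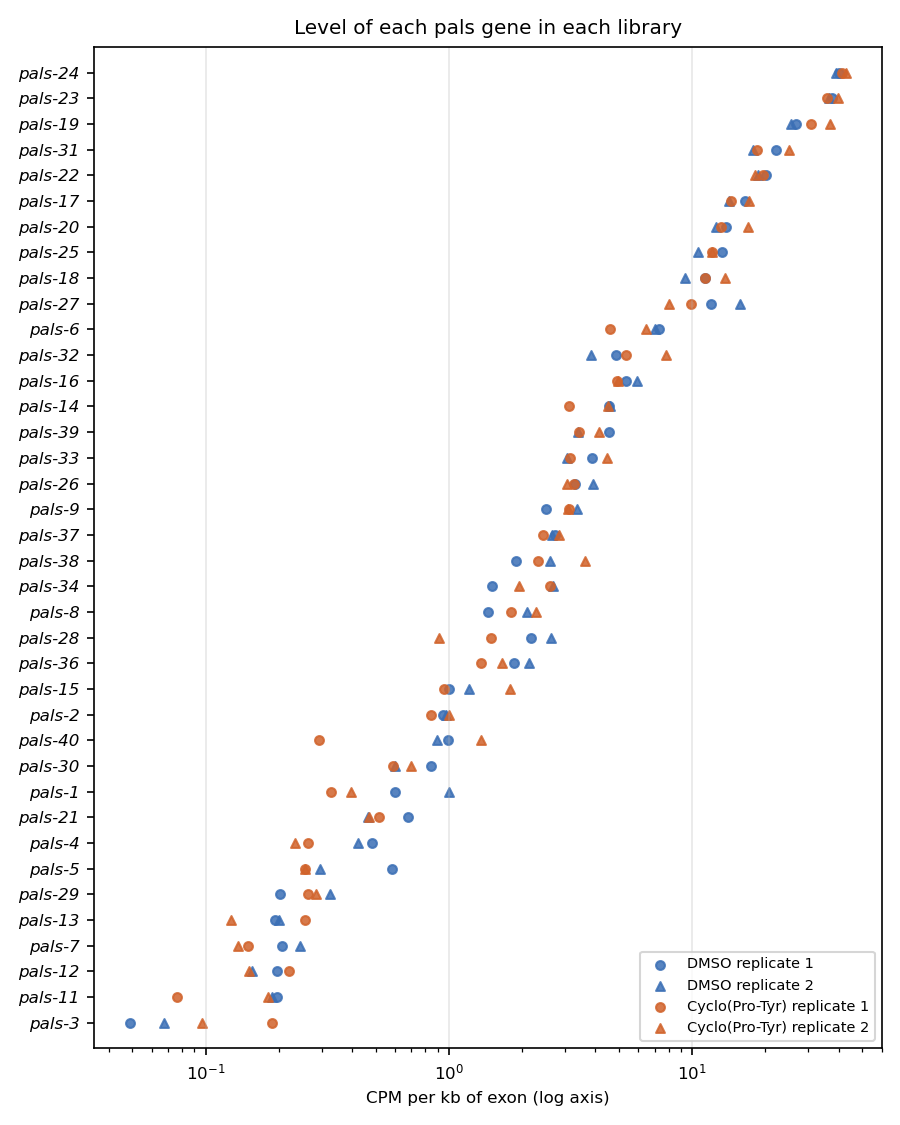
CPM per kb of exon (log axis) of the 38 pals genes with any count, ordered by their mean, with 1 point per library. Circles and triangles are replicates 1 and 2, blue for DMSO and orange for Cyclo(Pro-Tyr). The points of *pals-24* and *pals-23* lie together at the top and those of *pals-3* are the lowest on average.

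Levels differed between the places in the genome where the members lie. In the WBcel235 gene order, 14 of the 15 members on chromosome I form 1 run with at most 3 other protein-coding genes between neighbours, and this run had a median of only 0.349 CPM per kb, ranging from 0 to 6.34. On chromosome III, the run of *pals-24*, *pals-23*, *pals-22* and *pals-25* had a median of 28.2 CPM per kb, from 12.0 to 40.8. The second run on that chromosome, the 7 genes *pals-40*, *pals-21*, *pals-20*, *pals-17*, *pals-16*, *pals-19* and *pals-18*, spanned 0.532 to 29.9 CPM per kb. All genes with a known switching role sat in the runs on chromosome III, while *pals-5*, the member most used as a reporter of the response, sat in the low run on chromosome I.

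No pals gene passed the test between Cyclo(Pro-Tyr) and DMSO. The filter on low counts kept 37 members and left out *pals-10* and *pals-11*, and at an adjusted p under 0.05 by edgeR's quasi-likelihood test 0 of the 37 were called, against a background of 2.05% of the 19439 genes tested (0.715% higher and 1.33% lower). At that background a family of this size would hold fewer than 1 call, so the count says nothing particular about the family. At an unadjusted p under 0.05, 6 of the 37 members differed, 16.2%, beside 27.3% of all tested genes. DESeq2's Wald test called 2 members, *pals-27* and *pals-28*, both lower, beside 9.2% of all tested genes, 4.07% higher and 5.13% lower. It gave no adjusted p to some scarce genes, among them *pals-1*, *pals-3*, *pals-4*, *pals-5* and *pals-7*. Such genes could not be called and count as not called in these shares. The smallest edgeR adjusted p in the family was 0.0777.

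The fold changes of the family were spread around 0. Of the 37 tested members, 19 had a log2 fold change (Cyclo(Pro-Tyr) over DMSO) above 0 and 18 below, and 49.7% of all tested genes were above 0. Their median was 0.015, beside -0.0032 over all tested genes, and their median absolute value was 0.19, beside 0.25. The 2 replicates of DMSO differed by a median absolute log2 value of 0.27 for these members, and so did the 2 replicates of Cyclo(Pro-Tyr). Such a value compares single libraries and a fold change compares groups of 2, so their sizes cannot be set against each other directly. The 4 libraries separated by group, with no overlap in CPM, for 15 of the 37 members (40.5%), 4 higher and 11 lower in Cyclo(Pro-Tyr). The same held for 60.5% of all tested genes, 29.6% higher and 30.8% lower.

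What these libraries could show depended on the level of the gene. For 22 of the 37 members the 95% interval of the fold change lay wholly between 2-fold lower and 2-fold higher, as it did for 70.9% of all tested genes. These were 9 of the 10 genes with at least 10 CPM, 12 of the 16 between 1 and 10 CPM, and 1 of the 11 tested genes below 1 CPM. The median standard error of the log2 fold change was 0.15, 0.22 and 0.48 in these bins. Changes of 2-fold were therefore not excluded by the intervals of most low members.

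**Figure D2:**
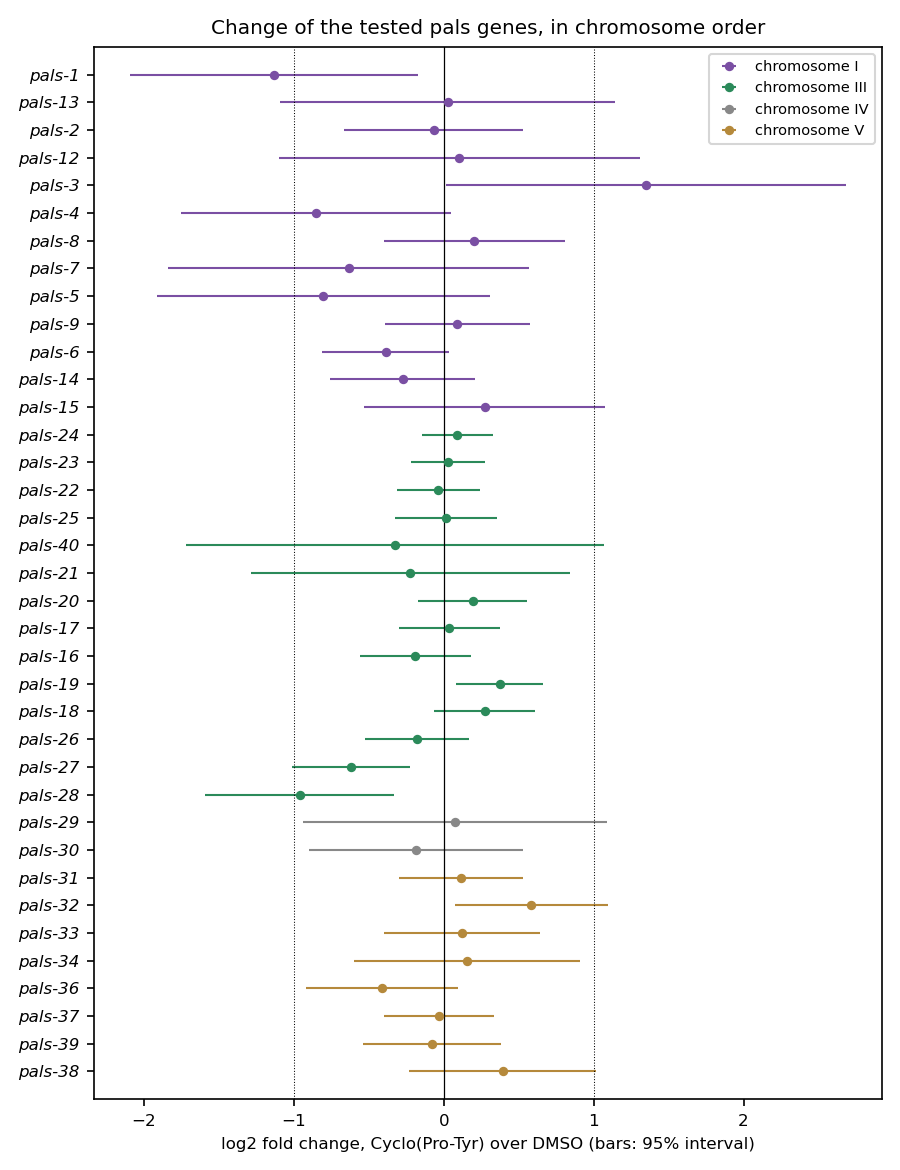
Log2 fold change of Cyclo(Pro-Tyr) over DMSO for the 37 tested pals genes with 95% intervals from the edgeR fit, in order along chromosomes I, III, IV and V. Dotted lines mark 2-fold. The intervals are narrow for *pals-24*, *pals-23*, *pals-22* and *pals-25*, while *pals-3* and *pals-1* have the points farthest from 0 and wide intervals.

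Among the switches, *pals-22* and *pals-25* had nearly equal levels in both groups. These genes are adjacent, with no other protein-coding gene between them. The repressor *pals-22* (CELE_C29F9.1) had 17.9 and 16.6 CPM in DMSO and 17.4 and 16.2 CPM in Cyclo(Pro-Tyr). The groups overlapped, and the log2 fold change was -0.036 (95% interval -0.31 to 0.24, edgeR adjusted p 0.872), or on the linear scale a fold between 0.804 and 1.18. The activator *pals-25* (CELE_T17A3.2) had 14.2 and 11.3 CPM in DMSO, and both Cyclo(Pro-Tyr) libraries lay between these at 12.9 CPM. Its log2 fold change was 0.015 (interval -0.33 to 0.36, edgeR adjusted p 0.960). The ratio of *pals-22* to *pals-25* per kilobase was 1.51 and 1.76 in DMSO and 1.62 and 1.51 in Cyclo(Pro-Tyr).

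The second set of switches also overlapped between the groups, except *pals-16*. The repressor *pals-17* (CELE_Y82E9BR.13) had 14.4 and 12.3 CPM in DMSO and 12.6 and 14.8 CPM in Cyclo(Pro-Tyr), which gave a log2 fold change of 0.036 (interval -0.30 to 0.37, edgeR adjusted p 0.897). The activating gene *pals-20* (CELE_Y82E9BR.25) had 13.6 and 12.4 CPM in DMSO and 12.99 and 16.8 CPM in Cyclo(Pro-Tyr). Its high value in Cyclo(Pro-Tyr) replicate 2 stood apart from the other 3 libraries, and its log2 fold change was 0.19 (interval -0.17 to 0.55, edgeR adjusted p 0.457). Of its exon bases, 50.8% overlap Y82E9BR.5 on the opposite strand, a gene at 1.83 to 2.59 CPM, so part of its count is uncertain. The activating gene *pals-16* (CELE_Y82E9BR.4) had 5.72 and 6.35 CPM in DMSO and 5.28 and 5.30 CPM in Cyclo(Pro-Tyr). Both treated libraries were below both DMSO libraries, by an amount that the test did not call (log2 fold change -0.19, interval -0.56 to 0.18, edgeR adjusted p 0.474). For all 5 switches the interval excluded a change of 2-fold in either direction.

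None of the listed members known to be switched on by infection had a higher level with the compound on average. A list of genes of the intracellular pathogen response named 6 members by their locus tags, *pals-2*, *pals-5*, *pals-6*, *pals-26*, *pals-27* and *pals-28*. All 6 passed the filter, 0 were called, and all 6 had a log2 fold change below 0, with a median of -0.50. In 5 of the 6, all but *pals-2*, both treated libraries lay below both DMSO libraries, as was the case for 30.8% of all tested genes. Together they took 42.3 and 49.6 CPM in DMSO and 33.8 and 32.7 CPM in Cyclo(Pro-Tyr). For the other 31 tested members the median was 0.036, with 19 above 0 and 12 below. These are only the members that the list does not name, and whether infection induces them was not examined here. Of the 6 listed, *pals-26*, *pals-27* and *pals-28* are neighbours in 1 run, and the rest lie in the long run on chromosome I. The list was chosen with earlier results of these data known, and the difference between listed and other members was not tested.

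The reporter gene *pals-5* (CELE_C17H1.6) was scarce, with 33 and 14 counts in DMSO and 15 and 11 counts in Cyclo(Pro-Tyr). In CPM these were 0.642 and 0.323 against 0.282 and 0.282. DMSO replicate 1 was high and the other 3 libraries were alike. Its log2 fold change was -0.80 (interval -1.91 to 0.31, edgeR adjusted p 0.312), and without DMSO replicate 1 it was -0.20. The related *pals-6* (CELE_C17H1.7), a more abundant member of the same run, had 10.6 and 10.2 CPM in DMSO and 6.65 and 9.32 CPM in Cyclo(Pro-Tyr). The low library was Cyclo(Pro-Tyr) replicate 1, and the log2 fold change was -0.39 (edgeR adjusted p 0.212). Without Cyclo(Pro-Tyr) replicate 2 its change was -0.64 with an edgeR adjusted p of 0.0429, in a fit that called 4.95% of all tested genes, while without Cyclo(Pro-Tyr) replicate 1 it was -0.16.

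The smallest p-values of the family were those of *pals-27* and *pals-28*, neighbours on chromosome III. Both are known as genes induced by infection. The gene *pals-27* (CELE_B0284.2), singled out after its values were seen, had 18.1 and 23.8 CPM in DMSO and 14.98 and 12.2 CPM in Cyclo(Pro-Tyr). The groups did not overlap, and the log2 fold change was -0.62 (standard error 0.17, interval -1.01 to -0.23), which did not pass the threshold at an edgeR adjusted p of 0.0777. The gene *pals-28* (CELE_B0284.4) had 2.74 and 3.30 CPM in DMSO and 1.88 and 1.15 CPM in Cyclo(Pro-Tyr), from 141, 143, 100 and 45 counts. Its log2 fold change was -0.96 (standard error 0.27, interval -1.60 to -0.33, edgeR adjusted p 0.0820). The third gene of the run, *pals-26* (CELE_B0284.1), had 8.93 and 10.7 CPM in DMSO and 8.90 and 8.35 CPM in Cyclo(Pro-Tyr), which gave a log2 fold change of -0.18 (edgeR adjusted p 0.472). Per kilobase, *pals-28* stood at 0.661 and 0.668 of *pals-26* in DMSO and at 0.454 and 0.297 in Cyclo(Pro-Tyr).

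The values of *pals-27* and *pals-28* were lowest in Cyclo(Pro-Tyr) replicate 2. Without Cyclo(Pro-Tyr) replicate 1 edgeR called both, with log2 fold changes of -0.78 and -1.38 at adjusted p-values of 7.17e-04 and 0.0013. In that fit 21.8% of all tested genes were called. Without Cyclo(Pro-Tyr) replicate 2 their log2 fold changes were -0.48 and -0.68 and neither was called. DESeq2 on all libraries gave adjusted p-values of 0.0315 and 0.0494.

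**Figure D3:**
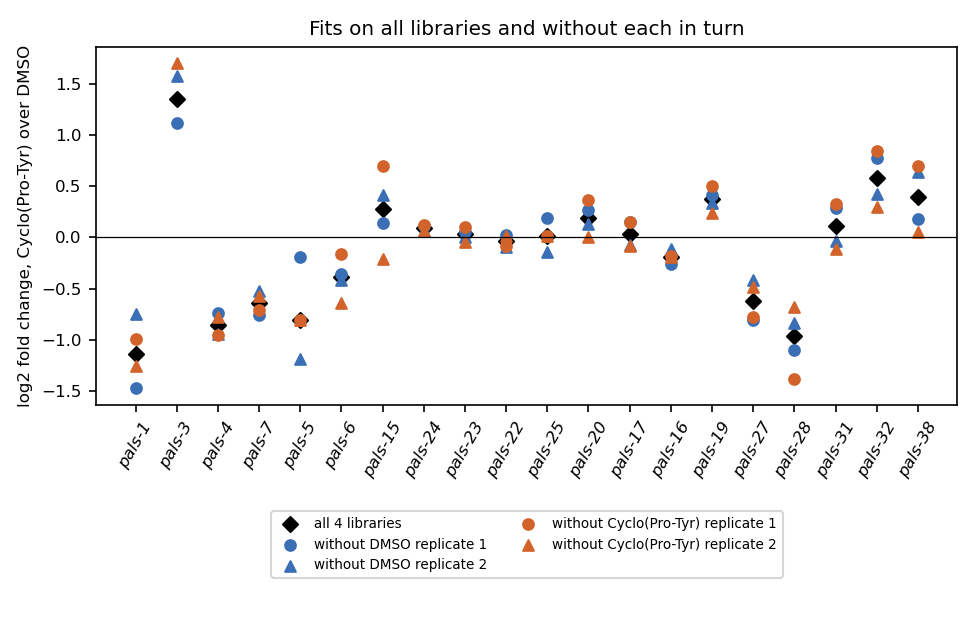
Log2 fold change of 20 pals genes in the edgeR fit on all libraries (black) and in fits without each library in turn (blue without a DMSO replicate, orange without a Cyclo(Pro-Tyr) replicate). The groups of *pals-27* and *pals-28* did not overlap in CPM, so leaving out 1 library could hardly turn their sign, and their points stay below 0. The groups of *pals-22*, *pals-25* and *pals-17* overlapped, and their points fall on both sides of 0. *pals-3* did not pass the filter without Cyclo(Pro-Tyr) replicate 1 and has no point there.

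Other large fold changes downward belonged to scarce transcripts of chromosome I. The gene *pals-1* (CELE_F15D3.8) had 30 and 42 counts in DMSO and 17 and 15 in Cyclo(Pro-Tyr), which gave a log2 fold change of -1.13 (interval -2.10 to -0.17, edgeR adjusted p 0.133). It lies apart from the run of the other 14 members, and its groups did not overlap. The gene *pals-4* (CELE_C17H1.5) had 30 and 22 counts in DMSO and 17 and 11 in Cyclo(Pro-Tyr), which gave a log2 fold change of -0.85 (edgeR adjusted p 0.203). The gene *pals-7* (CELE_C17H1.8) had 12 and 12 counts in DMSO and 9 and 6 in Cyclo(Pro-Tyr), which gave a log2 fold change of -0.63 (edgeR adjusted p 0.460). All 3 were named for their large changes downward, so that they were lower in both treated libraries follows largely from that choice. The same held for 30.8% of all tested genes. At these levels single counts weigh.

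Upward, the largest fold change was that of *pals-3* (CELE_C17H1.4), with 6 and 7 counts in DMSO and 24 and 9 in Cyclo(Pro-Tyr). Its log2 fold change was 1.35 (interval 0.018 to 2.68, edgeR adjusted p 0.178), and most of the difference was in Cyclo(Pro-Tyr) replicate 1. The annotated exons of *pals-3* hold 99.5% of the exon bases of *pals-12* on the same strand, so how reads were shared between them is not known.

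Of the better expressed members, *pals-32* (CELE_C31B8.4) had 6.24 and 4.92 CPM in DMSO and 6.85 and 10.02 CPM in Cyclo(Pro-Tyr). The groups did not overlap but DMSO replicate 1 and Cyclo(Pro-Tyr) replicate 1 were close, and the log2 fold change was 0.58 (interval 0.073 to 1.09, edgeR adjusted p 0.141). Of the exon bases of *pals-32*, 15.2% overlap *str-46* on the opposite strand, so part of its count is uncertain. The counts of *str-46* were 0 and 4 in DMSO and 10 and 10 in Cyclo(Pro-Tyr). The gene *pals-19* (CELE_Y82E9BR.23) had 25.8 and 24.5 CPM in DMSO and 29.7 and 35.5 CPM in Cyclo(Pro-Tyr), which gave a log2 fold change of 0.37 (interval 0.083 to 0.66, edgeR adjusted p 0.113). Its neighbour *pals-18*, which shares 53 exon bases with it on the same strand, had 26.6 and 21.9 CPM in DMSO and 26.6 and 32.1 CPM in Cyclo(Pro-Tyr). In both genes Cyclo(Pro-Tyr) replicate 2 was the highest library. That library was also the highest for *pals-38* (CELE_C54D10.8), with 2.65 and 3.65 CPM in DMSO and 3.25 and 5.07 in Cyclo(Pro-Tyr), and for *pals-15* (CELE_F22G12.7), with 1.11 and 1.34 against 1.05 and 1.97. Their log2 fold changes were 0.39 and 0.27, with overlapping groups. Without Cyclo(Pro-Tyr) replicate 1 edgeR called *pals-32*, *pals-19* and *pals-38* as higher, with log2 fold changes of 0.84, 0.50 and 0.70, in the fit that called 21.8% of all tested genes. Without Cyclo(Pro-Tyr) replicate 2 these were 0.29, 0.24 and 0.057 and none of the 3 genes was called.

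The most abundant members did not pass the test either. The levels of *pals-24* were 40.6 and 39.5 CPM in DMSO and 41.7 and 43.4 CPM in Cyclo(Pro-Tyr), which gave a log2 fold change of 0.089 (interval -0.15 to 0.33, edgeR adjusted p 0.610). Those of *pals-23* were 55.6 and 54.2 CPM against 53.1 and 59.0 CPM, a log2 fold change of 0.029 (interval -0.22 to 0.28). For *pals-31* they were 19.7 and 15.9 CPM against 16.4 and 22.3 CPM, a log2 fold change of 0.11 (interval -0.30 to 0.53, edgeR adjusted p 0.712). The groups of *pals-24* did not overlap, by a margin of about 1 CPM, while those of *pals-23* and *pals-31* did.

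Outside the pals family 14 genes of the response were listed, 13 passed the filter and 0 were called by edgeR, while 5 had an unadjusted p under 0.05, 3 higher and 2 lower. At the background of 2.05% a list of this size would hold fewer than 1 call, and the count at an unadjusted p stands beside 27.3% of all tested genes. The median log2 fold change of the 13 was 0.017. The cullin gene *cul-6*, part of a ubiquitin ligase with the Skp1-related proteins, had 43.4 and 49.4 CPM in DMSO and 38.9 and 35.6 CPM in Cyclo(Pro-Tyr), with no overlap and a log2 fold change of -0.32 (edgeR adjusted p 0.133). Its partner gene *skr-5* had 15.4 and 12.96 CPM against 16.2 and 18.8 CPM, a log2 fold change of 0.30 (edgeR adjusted p 0.221). The gene *eol-1*, related to the decapping enzyme DXO, had 5.66 and 5.41 CPM against 4.17 and 4.18 CPM, a log2 fold change of -0.41 (edgeR adjusted p 0.158).

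Regulators outside the family were also listed, and 0 of 13 were called, with 2 at an unadjusted p under 0.05, beside the same backgrounds. The viral RNA sensor gene *drh-1* had 35.2 and 37.5 CPM in DMSO and 38.3 and 42.1 CPM in Cyclo(Pro-Tyr), which gave a log2 fold change of 0.15 (edgeR adjusted p 0.422). The transcription factor gene *zip-1*, needed for *pals-5* induction, had a log2 fold change of 0.073 (edgeR adjusted p 0.709), and its groups overlapped. The purine enzyme gene *pnp-1*, another repressor of the response, had 497 and 439 CPM against 524 and 646 CPM, a log2 fold change of 0.32 (edgeR adjusted p 0.213).

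The chil genes, chitinase-like genes known from the response to oomycetes, stood more to one side than the pals genes without passing the test. Of 28 genes 27 were tested, 0 were called by edgeR and 9 had an unadjusted p under 0.05, 7 higher and 2 lower, beside 27.3% of all tested genes. The log2 fold change was above 0 in 23 of the 27, with a median of 0.50, and in 16 of them both treated libraries lay above both DMSO libraries, against a background of 29.6%. DESeq2 called 3, all higher, where it called 4.07% of all tested genes higher. The best known of them, *chil-27*, which is induced by oomycete contact and in the *pals-22* mutant, had 4 and 3 counts in DMSO and 13 and 14 in Cyclo(Pro-Tyr). Its log2 fold change was 1.95 (interval 0.52 to 3.39, edgeR adjusted p 0.101). DESeq2 gave *chil-27* no adjusted p, so it could not be called there. The difference between the chil and the pals genes was not tested. Which chil genes are neighbours in the genome was not examined, so they may not be separate observations.

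**Figure D4:**
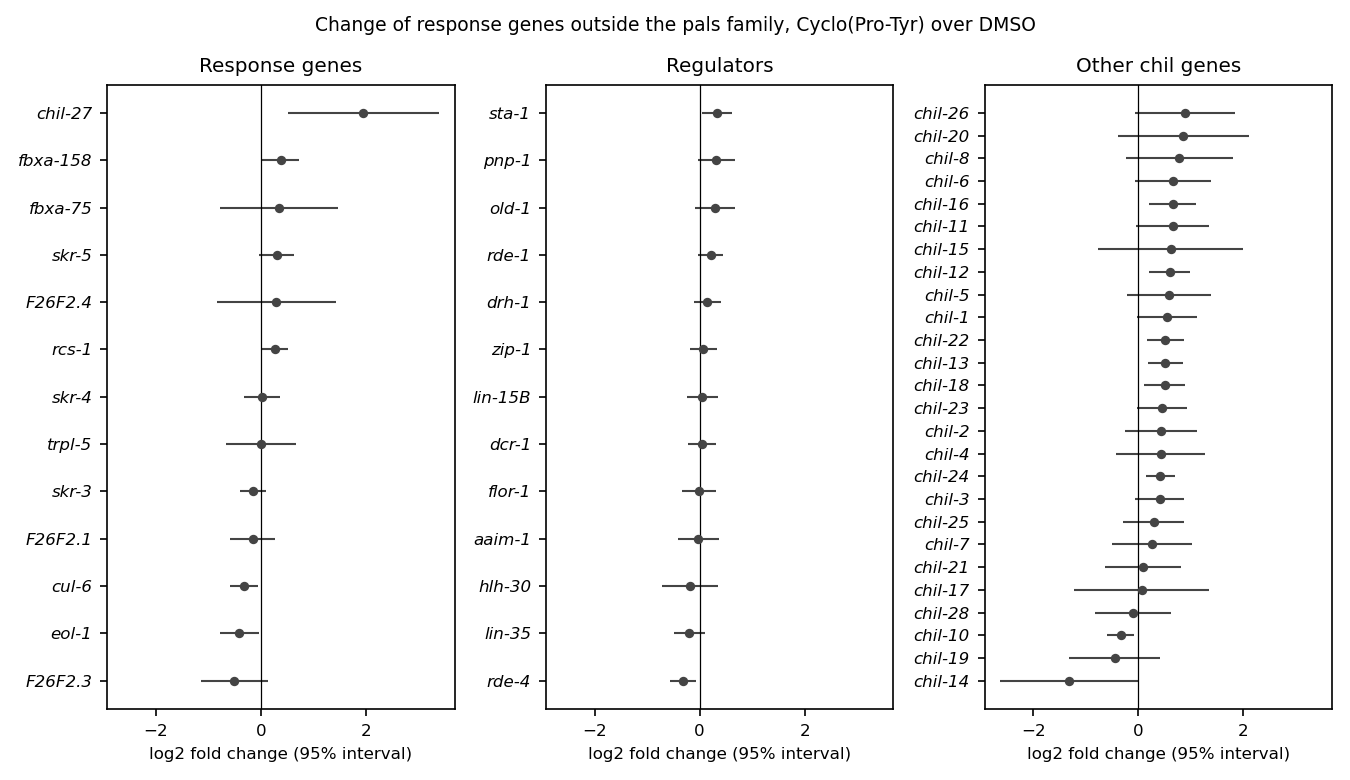
Log2 fold change of Cyclo(Pro-Tyr) over DMSO with 95% intervals from the edgeR fit for the 13 tested response genes outside the pals family, the 13 regulators and the other 26 tested chil genes. Most points of the first 2 panels lie near 0, except *chil-27*, which is in the first panel and the farthest right of all, and most points of the third lie to the right of 0.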

How the data were processed

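RNA sequencing counts were analysed for 2 libraries of worms kept with DMSO and 2 kept with Cyclo(Pro-Tyr). The authors deposited raw counts, whole numbers of reads per gene with 1 column per library. Bowtie2 and SAMtools are named in the submitters' processing notes. The sources used here do not say how reads were counted, on which build or annotation, or with which use of strand, so genes overlapping on opposite strands are uncertain. Groups follow the sample titles. A treatment label of Cyclo(Pro-Tyr) replicate 2 also reads replicate 1.

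Symbols came from RefSeq WBcel235 by locus tag (21890 of 21895 rows), and exon lengths and overlaps from Ensembl release 115. The test was the quasi-likelihood one of edgeR 4.0.16 in R 4.3.3, after filterByExpr (19439 genes kept, 2456 left out), TMM scaling and Benjamini-Hochberg adjustment over all genes tested, at 0.05. Standard errors are the fold change divided by the root of its F statistic, and intervals are at 95%. The fit was also run on simulated counts in which every gene had the same dispersion, so that run does not show how it performs on these libraries. Alternatives were other scaling and filters, DESeq2 1.42.0, limma-voom (3.58.1), a replicate block and leaving out each library. Intervals cover counting error and the spread between libraries only, and the floor of *pals-10* covers counting error only. The edgeR fit takes each gene's spread partly from the other genes (prior degrees of freedom 5.731). A gene's p-value and interval therefore do not rest on its own 4 libraries alone. Sequence similarity between members was not analysed here, so reads shared between close copies are uncertain. Figures used matplotlib 3.10.9.

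The family as a subject, the lists and the alternatives were chosen with earlier results of these data known, although the rule for membership uses symbols only. Named were any called member, 6 with known roles, the 6 highest per kilobase, the 5 largest changes in each direction and 7 listed genes. *pals-6*, *pals-18*, *pals-26* and *pals-27* were added after their values were seen. The response list held 20 genes, of which 6 were pals members under their locus tags.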

Additional observations from a re-analysis of the deposited data

How the results depend on the processing

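The count of called pals genes, 0 in the report, was 0 with DESeq2 size factors, library totals, no filter, the filter of 5 CPM in 2 libraries, limma-voom and the replicate block. DESeq2's Wald test called 2, beside 9.2% of all tested genes. The pals genes called in fits without 1 library are named above, beside the share of all tested genes called there. In such fits the lone library is assumed to vary like the other group. All genes called, 398 in the report, numbered 215 with library totals, 0 with the 5 CPM filter (3736 at an unadjusted p under 0.05), 1789 with DESeq2's Wald test, 221 with the replicate block, and 0 to 4296 without 1 library. The causes were not tested. The chil genes called numbered 3 with DESeq2's Wald test and 0 to 8 without 1 library, and the listed response genes 0 to 1. The median log2 fold change of the tested pals genes, 0.015, ran from -0.13 to 0.055 without 1 library.

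With library totals the changes of *pals-25*, *pals-17* and *pals-23* turned to -0.019, -1.2e-04 and -0.0077. Without 1 library, 19 tested members lay on both sides of 0. Of these, 6 were named by the rule, and with *zip-1*, which is no member, they ranged from -0.14 to 0.19 for *pals-25*, -0.081 to 0.15 for *pals-17*, -0.045 to 0.10 for *pals-23*, -0.089 to 0.019 for *pals-22*, -0.12 to 0.32 for *pals-31*, -0.21 to 0.69 for *pals-15* and -0.0059 to 0.16 for *zip-1*. The other 13 lay between -1.69 and 0.61. None of these genes was called in those fits.

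Same-numbered libraries tended to deviate from their group means in opposite directions (correlation -0.20). With 2 libraries per group this cannot show whether same-numbered libraries were handled together. A crossed replicate block, chosen after seeing the data, called 4 pals genes, 1 listed response gene and 7 chil genes. It called 4581 genes in all, 23.6% of those tested. Below 1 CPM, counts limit what can be told.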
